A study of Mus musculus and synthetic RNA with 74 samples.

Results

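The introns described here are annotated mouse introns of 200 to 10000 nt that carried many reads for the level of the exons on both sides of them in blastocyst-stage embryos. They were taken from the table of exons and introns at E3.5. An intron was kept if its mean normalized read count over all embryos of the stage was at least 50 and its reads per kb reached at least 10% of the mean of the flanking exons of the same transcript. Introns that overlapped any listed exon were dropped. Of 199024 distinct introns, 153808 had this length, 143878 of these overlapped no listed exon, and 4149 of those reached the minimum mean. The 10% limit left 1113 introns in 885 genes, 26.8% of the introns at the minimum mean. The introns were thus chosen by their E3.5 means and ratios, so their levels at E3.5 are a description and carry no test.

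The embryos came from intercrosses of mice heterozygous for a stop-codon cassette in exon 3 of Mettl16, which encodes an m6A methyltransferase. All embryos descend from the same targeted line, made by zygote injection in the B6D2F1/J hybrid and crossed to C57BL/6JRj. Single embryos were sequenced as poly(A) RNA without strand information: 5 wild-type (WT), 14 heterozygous (HET) and 12 knockout (KO) embryos at E2.5, the morula stage, and 18 WT, 9 HET and 12 KO embryos at E3.5. The values used were the authors' means over all 31 or 39 embryos of a stage, with the genotypes pooled, so no value has an SD and no sample can be shown singly. Mettl16 itself had a mean of 778 at E2.5 and 669.5 at E3.5 over all genotypes, and the genotype labels could not be checked against it. A change of the introns in KO embryos is held only by the authors' own comparison columns, which were not used, and is not analysed here. A second experiment methylated a randomized RNA library with METTL16 in vitro and gave 2 input and 2 m6A-IP libraries, from reactions 11 and 12.

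Introns are removed by the spliceosome while or soon after the RNA is made. An intron that stays in a polyadenylated transcript is called retained when the RNA reaches the cytoplasm and detained when the RNA waits in the nucleus, and detained introns are known from genes of splicing factors and of the Clk kinases that phosphorylate SR proteins. METTL16 methylates the nonamer UACAGAGAA in U6 snRNA and in hairpins of the Mat2a transcript, whose last intron is known to be spliced according to the supply of S-adenosylmethionine.

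Reads over an intron do not by themselves mark a detained intron, and the label fits the chosen introns only in part. An exon of a transcript that GENCODE names a retained intron spanned 32 of the 1113 introns, 2.87%, against 4.71% of the 3036 introns at the same minimum mean below the limit and 2.93% of all 143878 introns of the length. The reads per kb exceeded those of the flanking exons in 132 introns, and in 13 both flanking exons were listed at 0. At least 1 other annotated exon or a gene of the other strand lay in 670 introns, which leaves 443 with none, 39.8%, against 36.6% below the limit and 68.8% of all. They are therefore called the chosen introns below, by their rule and not as detained introns.

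The ends of 1096 of the 1113 introns, 98.5%, were GT and AG, against 99.0% of all introns of the length. The splice sites of 6 introns that recur below are shown, since they bound the reads described; the build is mm10, read from the GRCm38 reference. Each donor has 3 exon and 6 intron bases and each acceptor 20 intron and 3 exon bases, and capitals mark the GT and AG ends.
Mkrn1 intron 3 (chr6:39404875-39405730, minus strand), donor: gtaGTaagt
Mkrn1 intron 3, acceptor: accatcttaaacattttcAGctg
Hnrnpdl intron 7 (chr5:100034985-100036103, minus strand), donor: cagGTgtgt
Hnrnpdl intron 7, acceptor: gtgtttcgtttttgttttAGgag
Nop56 intron 8 (chr2:130277133-130277475, plus strand), donor: cagGTacca
Nop56 intron 8, acceptor: ttgactgaatattctcacAGagc
Rbm5 intron 5 (chr9:107759850-107760321, minus strand), donor: cagGTgaga
Rbm5 intron 5, acceptor: tatctgaatgctgtctctAGgtg
Cdk8 intron 2 (chr5:146259581-146268214, plus strand), donor: gcaGTaagt
Cdk8 intron 2, acceptor: ggatctcctttgttttgtAGtta
Zc3h7a intron 19 (chr16:11141772-11145179, minus strand), donor: gatGTacat
Zc3h7a intron 19, acceptor: atatttttttctccacacAGcta
Scored in bits against the base frequencies of all GT-AG introns, the donor of Zc3h7a reached 1.87 and that of Rbm5 10.6. Over the chosen introns the median was 8.19 bits for donors and 9.69 for acceptors, beside 8.28 and 9.54 over all introns of the length, so their splice sites lay in the usual range.

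Read levels of the chosen introns were modest next to exons of the same genes. Their median mean count was 84.4 at E3.5, with quartiles of 61.4 and 130, and their median length was 3423 nt, against 1439 nt for all introns of the length. Relative to the flanking exons the median level was 22.9%, with quartiles of 14.8% and 48.0%. The exons beside them had a median of 111 reads per kb, against 29.3 over all introns of the length. Beside the introns at the same minimum mean below the limit it was 1544, a contrast that the ratio limit itself favours. The plot of introns against exons shows this as a cloud that leans to the left of the other introns.

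**Figure D1:**
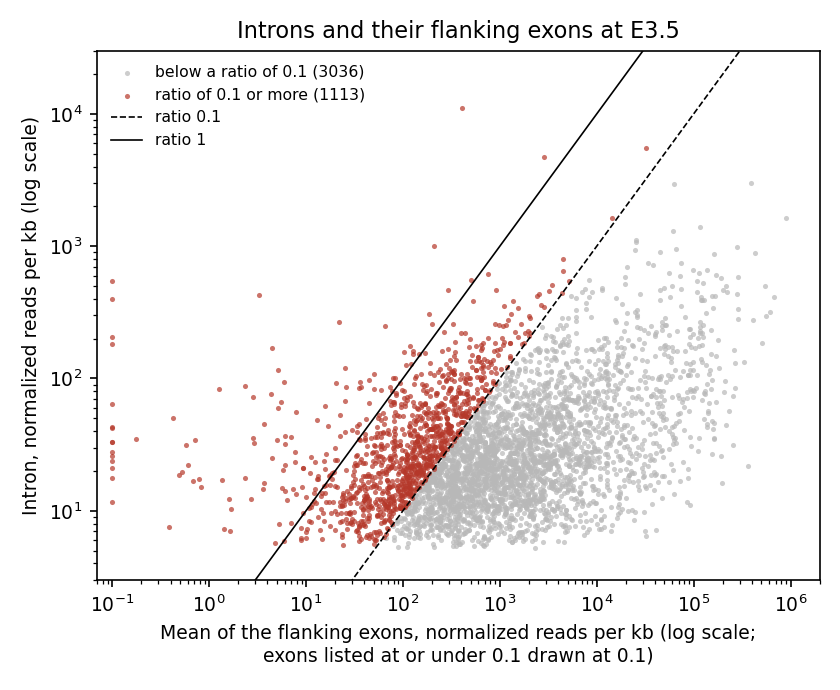
Reads per kb of each intron (y, log scale) against the mean of its flanking exons (x, log scale) at E3.5, as means over all embryos, for the 4149 introns at the minimum mean. The 1113 chosen introns, in red, lie above the dashed line at a ratio of 0.1, and 132 of them lie at or above the solid line at a ratio of 1.

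The chosen intron with the highest mean count was intron 19 of Zc3h7a, a gene for a CCCH zinc finger protein, at 37476 normalized reads at E3.5 and 5925 at E2.5. This was 2706% of its flanking exons at E3.5 and 1460% at E2.5, and 2026 times the level of the other introns of the transcript at E3.5. The small RNA gene Gm23935 covers 57 bases of it. Intron 2 of Cdk8, a kinase of the mediator complex, followed at 8624 reads at E3.5 and 4649 at E2.5, or 473% and 61.2% of its exons. Intron 3 of Mkrn1, an E3 ubiquitin ligase, had 4722 reads at E3.5 and 4596 at E2.5. Mkrn1 differs from the other 2 in that its exons were abundant, at 61692 reads per kb upstream and 3480 downstream, and its intron level was almost the same at both stages, 16.9% and 18.8%. At 5516 reads per kb at E3.5 the Mkrn1 intron lay above its downstream exon and far below its upstream one. Intron 4 of Atf2, a bZIP transcription factor, reached 1900 reads at E3.5 and 90.8 at E2.5, and intron 10 of Cd44, the hyaluronan receptor, 1483 and 14.7. The remaining introns among the 10 highest lay in Brd1, Adgrd1, Csnk2a2, Rhox3g and Hsd17b4, with 1080 to 1377 reads at E3.5.

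In 13 introns both flanking exons were listed at 0 at E3.5, so that no ratio can be given. They lie in Abcb4, Adad1, Adamts3, Adgrd1, Alpk1, Cd44, Gm15348, Nphs1, Nr2e1, Nrg3, Plce1, Rhox3g and Trim46. Their mean counts at E3.5 ran from 73.6 in Trim46 and 95.9 in Nphs1, which encodes the podocyte protein nephrin, to 1483 in Cd44. A pseudogene exon lay in 7 of the 13. In Rhox3g, a homeobox gene of the X chromosome, it is Dppa3-ps, a processed pseudogene of the maternal factor Dppa3, which covers 451 bases. In Adgrd1 it is the ribosomal protein pseudogene Rps16-ps2, over 441 bases on the other strand. Pseudogene exons were found in 27 of the 132 introns above their exons, 20.5%, in 16 of the 306 at 30% to 100% of their exons, 5.23%, and in 17 of the 675 at 10% to 30%, 2.52%. The share was 2.11% in the introns at the same minimum mean below the limit, near that of the last band, and 0.563% over all introns of the length. Reads of near-identical copies cannot be assigned with certainty, so these values are uncertain, and what part the pseudogenes take in the reads was not tested.

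Beside well covered exons the picture was different. Only 40 of the chosen introns had flanking exons of 1000 reads per kb or more, a limit set after the values were seen. These introns were short, with a median of 684.5 nt (2820 nt for the 1807 introns below the limit beside exons of that level, and 1325 nt for all 17869 introns beside such exons). Their median level was 14.65% of their exons. An annotated retained intron spanned 12 of the 40, 30.0%, against 127 of the 1807, 7.03%, and 5.70% of all 17869 introns beside such exons. The sets are not matched for length, on which a split by reads per kb at a minimum count also depends. What part length takes in these shares was not tested. A snoRNA or scaRNA lay in 3 of the 40, 7.5% beside 2.60% of the 1807, although over all chosen introns the share was 1.26% beside 1.81% below the limit. Of the 40, 13, or 32.5%, were the last intron of their transcript, against 14.8% of the 1807. The following were picked from the 40 after their values were seen. Hnrnpdl, an hnRNP protein, had 570 reads in intron 7 at E3.5 and 302 at E2.5, or 14.9% and 5.47% of its exons. Pabpn1, the nuclear poly(A)-binding protein, had 403 reads in intron 6 at E3.5 and 169 at E2.5, or 10.5% and 8.58%. Intron 4 of Snrnp48, a protein of the U11/U12 snRNP of the minor spliceosome, stood at 10.2% and 4.77%, and intron 5 of Rbm5, a splicing regulator, at 11.9% and 4.85%. Intron 5 of Cbx1, which encodes HP1 beta, stood at 32.0% of its exons at E3.5 and 19.8% at E2.5, and intron 25 of Bptf, a subunit of the NURF remodeller, at 10.8% and 6.44%.

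Except for Gm1821, which has a single intron, and AI662270 at E2.5, whose other introns were listed at 0, the same introns could be set against the other introns of their own transcript, which the rule did not use, although the intron's own reads at E3.5 are part of both. The Mkrn1 intron had 311 times the reads per kb of the other introns of its transcript at E3.5 and 435 times at E2.5. In Ak7, an adenylate kinase gene, intron 9 had 242 and 303 times their level. In Hnrnpdl the factors were 42.4 and 14.1, and in Apoe, the apolipoprotein E gene, 2.49 and 3.35. The last intron of Apoe therefore stood out far less from its neighbours than that of Hnrnpdl.

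**Figure D2:**
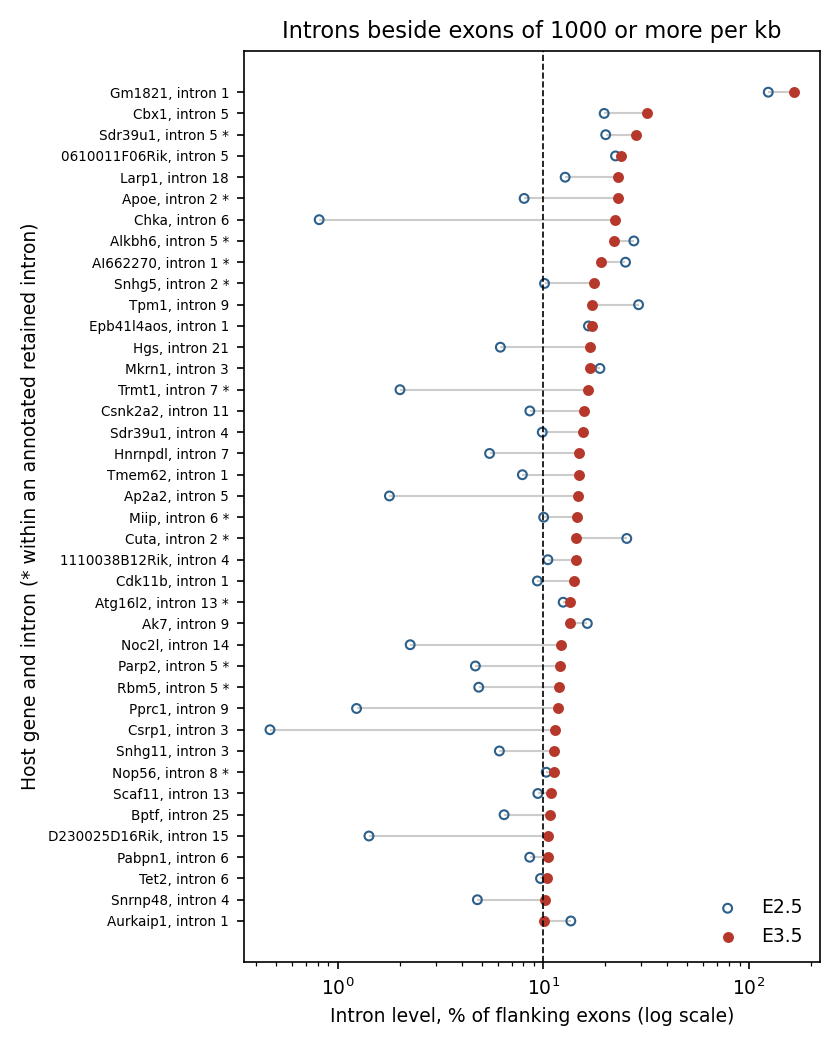
Level of each of the 40 chosen introns beside exons of 1000 or more reads per kb, as a percentage of the flanking exons (x, log scale), at E2.5 (open circles) and E3.5 (filled circles); each point is a mean over all embryos of the stage. At E3.5 all lie above the 10% line that chose them, and 18 of the 40, 45.0%, also lie above it at E2.5. Of the introns beside exons of that level, 8 of the 1807 below the limit, 0.443%, and 50 of all 17869, 0.280%, stood at 10% or more at E2.5.

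Genes of RNA processing held a small number of the chosen introns. Of 15 SR and Tra2 genes only Srrm1, a coactivator of splicing, held any, 2 of 14 introns of the list at the minimum mean (14.3%, beside 26.8% of all introns at that mean). They are introns 8 and 9, at 14.6% and 17.99% of their exons at E3.5, beside 2.04% and 2.01% at E2.5. Of 10 genes for kinases of SR proteins, Clk2 held intron 12, the only one chosen of 5 at the minimum mean, at 20.9% at E3.5 and 4.53% at E2.5. Introns of Clk1 and Clk4, known as examples of detention in other mouse cells, did not meet the rule: intron 7 of Clk1 had 80.9 reads at 7.24% of its exons. Some were dropped because they overlap a listed exon. Among these, a Clk1 intron of 1349 nt within an annotated retained intron had 172 reads at E3.5 and 459 at E2.5. It stood at 6.41% and 7.73% of its exons. Of 23 hnRNP genes with introns, 3 held a chosen intron, 3 of 15 introns at the minimum mean (20.0%): Hnrnpl at 28.5%, Hnrnpa2b1 at 21.0% and Hnrnpdl. The last intron of Hnrnpa2b1 was higher at E2.5, at 36.1%. Among 45 spliceosome genes they were Eftud2 and Prpf8, both of the U5 snRNP, at 19.9% and 13.3%, and Rbm5, 3 of 32 introns at the minimum mean (9.38%). An exon of the lincRNA Gm26668 of the other strand covers 71.0% of the Eftud2 intron, so its reads cannot be assigned to Eftud2. Over all their introns of the length, the median level was 0.29% in the SR genes, 0.33% in the hnRNP genes and 0.41% in the spliceosome genes at E3.5.

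Genes of the m6A list gave 2 of 9 introns at the minimum mean (22.2%). Mettl3, the main m6A writer of mRNA, held intron 1 at 13.6% of its exons at E3.5 and 1.72% at E2.5, and Mettl5, which methylates 18S rRNA, intron 4 at 12.99% and 1.81%. Of 27 snoRNA host genes with introns, 5 held one, 5 of 35 introns at the minimum mean (14.3%). Intron 8 of Nop56, a core protein of box C/D snoRNPs, contains the snoRNA gene Gm23187 and had 561 reads at E3.5 and 726 at E2.5, or 11.3% and 10.3%. In Snhg5, the second intron stood at 17.6% and 10.1%, and in Snhg7 the first at 81.5% and 70.6%. The last intron of Taf1d, which holds 3 snoRNA genes, stood at 121% and 58.1%, and the first intron of Dkc1, the pseudouridine synthase dyskerin, at 20.3% and 7.45%. All 5 introns had higher percentages at E3.5, as did 94.3% of the chosen introns with a percentage at both stages. All were chosen for a high level at E3.5, so part of this follows from the choice.

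None of the chosen introns lay in a gene of the methionine cycle and polyamine list, of the cytosolic ribosomal proteins, of the trophectoderm list or of the maternal oocyte list. The maternal list had 0 introns at the minimum mean, so none could be chosen, the methionine list had 6 and the trophectoderm list 15. The ribosomal protein genes had 41, and the median level of their introns was 0.066% of their exons. The last intron of Mat2a had 20.3 reads at E3.5 and 204 at E2.5, and stood at 1.72% and 1.69% of its exons. The Mat2a exons beside it were listed at 32816 reads per kb upstream and 8373 downstream at E2.5. In the separately normalized E3.5 table they were at 2438 and 1600, while the intron's percentage stayed close. Both percentages pool KO with WT and HET embryos, in proportions that differ between the stages. The paper reports lower Mat2a levels and fewer reads across this splice junction in KO morulae, so the percentages hold for no single genotype. Intron 6 of Mettl16 itself reached the minimum, with 61.7 reads, but stood at 0.815%. In WT and KO embryos it could not be seen separately.

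Genes of the lineages of the blastocyst were represented by 2 introns. These were 1 of 10 introns at the minimum mean in the epiblast list (10%) and 1 of 8 in the primitive endoderm list (12.5%). Over all introns at that mean the share was 26.8%. Tfcp2l1, a transcription factor of naive pluripotency, held intron 10 with 202 reads at E3.5 and 13.9 at E2.5, or 28.0% and 1.31% of its exons. Lama1, a laminin chain of the primitive endoderm, held intron 5 with 69.2 and 0.123 reads. Lineage markers were listed on each table's own scale: Krt8, a keratin of the trophectoderm, had a mean of 651 at E2.5 and 30838 at E3.5. Of the epiblast markers, Nanog was at 552 and 4161 and Sox2 at 13.6 and 165. Klf4 stood at 951 and 1238 and Fgf4 at 268 and 423. The pluripotency factor Pou5f1 went from 9017 to 3527 and Esrrb from 1346 to 1055. Among primitive endoderm markers, Gata4 went from 1268 to 253 and Gata6 from 3569 to 3676. Sox17 went from 71.45 to 174 and Pdgfra from 94.3 to 1575. Hba-a1, a blood marker, was at 49.6 and 12.0, and Ptprc, a leukocyte marker, at 0.316 and 1.34. Fewer cells of a kind and less RNA per cell cannot be told apart in whole embryos.

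A single chosen intron lay in 724 genes, and 5 or more in 5 genes. Lrp2, the endocytic receptor megalin, held 7, at 15.1% to 49.0% of their exons at E3.5, with mean counts of 80.0 to 299 and at most 5.09 at E2.5. The chosen ones stood between 76.2 and 177 reads per kb. Med12l, a mediator subunit gene, also held 7, at 11.3% to 27.03%, Tmem245 6, at 13.1% to 64.4%, and Csf3r, the receptor for granulocyte colony-stimulating factor, and Lrrc16a 5 each. Introns of the same gene share its transcripts and are not independent of each other.

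At E2.5, in a table the rule did not use, the same introns were lower. Their median level was 4.24% of the flanking exons, with quartiles of 1.98% and 11.5%, and 304 of the 1113, 27.3%, stood at 10% or more. The share was 10.1% over all introns of the length with a level at E2.5, 11.7% of those with a mean of at least 50 there, and 0.923% of the introns below the limit at E3.5. The percentage was lower at E2.5 in 1048 of the 1111 introns with a level there, 94.3%, where introns beside exons at 0 only at E3.5 are counted as lower at E2.5. Since they were chosen for a high value at E3.5, part of this follows from the choice, and introns in general were also lower at E2.5: 84.9% of those below the limit and 70.0% of all. Among the 22195 introns with flanking exons of at least 500 reads per kb at both stages the median level was 0.110% at E2.5 and 0.234% at E3.5. Of these introns, 79.25% were higher at E3.5. Applied to the E2.5 table, the same rule gave 253 introns, of which 117 were shared, 10.5% of the introns chosen at E3.5 and 46.2% of those at E2.5. The tables were normalized separately, so stages are compared by percentages within a table. Read counts of the stages set side by side are on different scales. The pooled means also mix the genotypes in different proportions, with a smaller share of WT embryos at the earlier stage. Differences between the stages are thus also differences in genotype mix, and what part the mix takes was not tested.

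**Figure D3:**
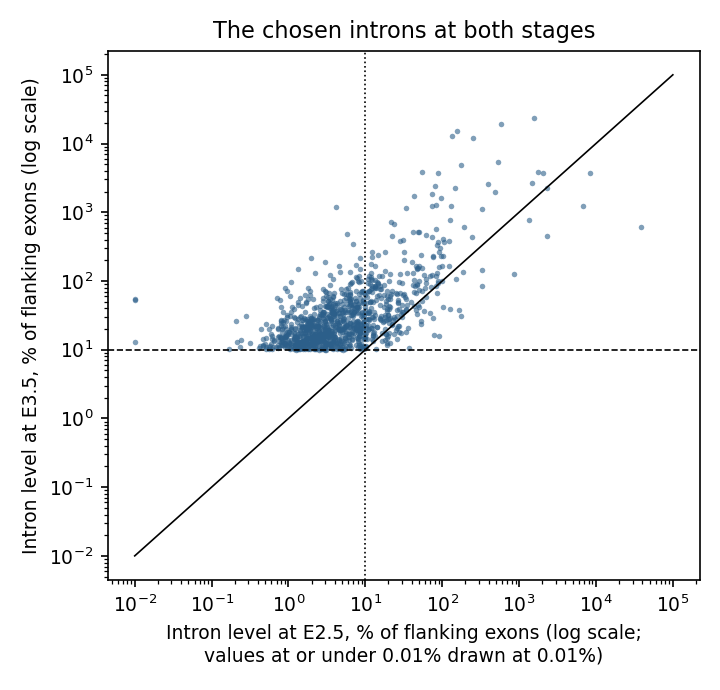
Level of the chosen introns as a percentage of their flanking exons at E2.5 (x, log scale) and E3.5 (y, log scale), each a mean over all embryos of the stage; introns with flanking exons at 0 are not drawn. The dashed and dotted lines mark 10% at each stage and the solid line equal values, and most points lie above the solid line.

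Of the 620 chosen introns with at least 20 reads at E2.5 and a level at both stages, 588 were higher at E3.5, with a median factor of 5.59 over all 620. These 620 were chosen for a high level at E3.5, so part of this follows from the choice. Introns in general were also higher there, and the genotype mix of the pooled embryos differs here too. The largest factor, 291, was that of Rimklb, a glutamate ligase gene, whose intron 5 went from 4.16% to 1212%, while the exons beside it went from 3248 and 431 reads per kb at E2.5 to 35.3 and 8.97 at E3.5. Intron 4 of Atf2 went from 0.893% to 78.9%, with 90.8 and 1900 reads. Intron 11 of Zmiz1, a coregulator of transcription, went from 5.83% to 485%, with 54.2 and 322 reads. In the other direction, intron 28 of Ankrd17, an ankyrin repeat protein, went from 855% to 127%, with 1109 and 589 reads, and intron 2 of the noncoding RNA Sp3os from 89.8% to 15.7%, with 372 and 54.9 reads. As listed, the intron of Rimklb had 186 and 651 reads. For the exons beside the Atf2 intron the levels were 396.5 and 2357 reads per kb at the earlier stage and 86.2 and 566 at the later one, and for those beside the Zmiz1 intron 388 and 312, then 43.95 and 5.95. For these 3 genes the E3.5 table lists more reads for the intron and fewer for both exons than the E2.5 table.

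The level of the chosen introns over the other introns of their transcripts was also high at E2.5. The median factor was 8.38 at E3.5 and 4.61 at E2.5, beside 3.42 and 2.55 for introns at the same minimum mean below the limit. At E2.5 the factor was at least 1 in 1013 of 1088 introns and at least 10 in 290, or 93.1% and 26.6%, against 83.3% and 11.9% of the introns below the limit. The 32 introns in annotated retained introns had medians of 15.3 and 12.3, and kept more of their level relative to exons, with medians of 19.7% at E3.5 and 9.45% at E2.5. The 100 introns of up to 1000 nt had medians of 22.6% and 9.96%, and the 1013 longer ones 22.9% and 3.82%, so short introns were nearer to the same level at both stages. Their flanking exons also had a higher median, 586 reads per kb at E3.5 against 101 for the longer ones. Length and exon level were not separated. Of the 443 introns with no other annotated exon or gene, the medians were 23.2% and 3.17%.

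Annotation and sequence features are set beside those of the introns at the same minimum mean below the limit and of all introns of the length. Median lengths of these 3 sets were 3423, 3779 and 1439 nt, so shares per intron are not matched for length. A gene of the other strand overlapped 12.4% of the chosen introns, 7.71% of those below the limit and 7.17% of all. Counting ignored strand, so its reads cannot be told from those of the intron. A run of 15 A on the intron's own strand occurred in 33.2%, 27.04% and 6.54%, which is 83.5, 64.1 and 30.3 introns with a run per Mb of intron. Runs of 15 T occurred in 19.5%, 23.1% and 9.68%, or 49.0, 54.8 and 44.9 per Mb. The libraries were primed on poly(A), and whether the A runs take part in these reads was not tested. The median GC content was 44.1%, near the 44.5% of all introns of the length, and masked repeats made up a median of 26.2% of an intron, against 20.2%.

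**Figure D4:**
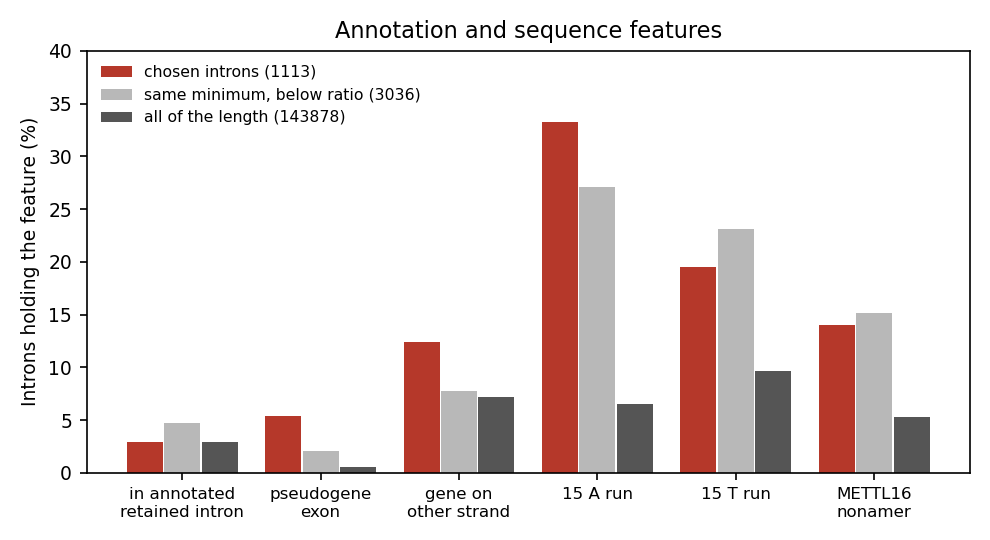
Percentage of introns (y) that hold each feature (x) among the 1113 chosen introns, the 3036 introns at the same minimum mean below the limit and all 143878 introns of the length. Runs of 15 A are in 33.2%, 27.04% and 6.54% of the introns, and the METTL16 nonamer in 14.02%, 15.1% and 5.26%.

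The nonamer that METTL16 methylates, TACAGAGAA in DNA letters, was searched on the strand of the intron and on the other strand. It occurred 174 times in 156 of the chosen introns, 14.02% of them, against 15.1% of the introns below the limit and 5.26% of all introns of the length. Per Mb of intron this was 39.3, 40.5 and 25.9 copies on the intron's strand, and 38.6, 47.3 and 34.6 on the other. Of the 174 copies, 136 lay in masked repeats, 78.2%, against 81.7% of the copies in introns below the limit and 67.7% of those in all introns of the length. Outside repeats the density was 10.4 per Mb in the chosen introns and 10.4 in all. The 30-nt windows with the nonamer at positions 12 to 20, the frame of the in vitro library, had 126 different sequences. Shown are the most frequent window, the most frequent one that pairs position 15, the adenosine that can be methylated, and the windows of 4 introns named here; capitals mark the nonamer.
25 introns, among them Ap2a2 intron 5 (chr7:141603267-141603296, plus strand): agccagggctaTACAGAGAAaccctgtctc
6 introns: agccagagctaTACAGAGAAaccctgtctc
Mettl3 intron 1 (chr14:52302711-52302740, minus strand): ggctggggctaTACAGAGAAaccttgtctt
Taf1d intron 11 (chr9:15315875-15315904, plus strand): agccagaactaTACAGAGAAacgctgtctc
Fyb intron 14 (chr15:6656735-6656764, plus strand): taccatgtgaaTACAGAGAAcatttttctc
Mtmr10 intron 5 (chr7:64306994-64307023, plus strand): ctgtggttgggTACAGAGAAaccaaggcaa
The first 4 lie in masked repeats and resemble one another, and the windows of Fyb and Mtmr10 do not. They are matches of letters and were not tested as methylated sites. In all, 127 of the 174 windows were wholly masked.

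Folded with RNAfold, the windows put position 15 mostly in a hairpin loop: 108 of 174, 62.1%, beside 68.4% of the 519 windows in introns below the limit. It was paired in 48 windows, 27.6% beside 19.5%, and in a bulge or interior loop in 2. The 75 structures were looked up in the in vitro table, which lists values of m6A-IP and input libraries for 36835 structures of the randomized RNA, and 69 were present. In limma's test of the 2 m6A-IP against the 2 input libraries, with 5 added before taking log2 and Benjamini-Hochberg adjustment over all structures at 0.1, 6 of the 69 were enriched and 32 depleted. Over all structures 12.5% were enriched and 27.2% depleted, and the median log2 fold change was -0.27, beside -0.51 for the 69. The m6A-IP library of reaction 12 had 1154715 reads against at least 18106811 in the others; without it 19 of the 69 were enriched and 42 depleted, and without the input library of reaction 11 or 12 it was 1 and 6. Scaling to library totals gave 19 and 33, and moved the median of all structures to -0.06.

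The structure of the most frequent window, shared by 41 windows, has the nonamer in a large loop. Its values were 331 and 383 in the input libraries of reactions 11 and 12 and 263 and 236 in the m6A-IP libraries. Both m6A-IP values lay below both inputs, with a log2 fold change of -0.51 (SE 0.17, limma adjusted p = 0.07), a call that was lost with the reaction as a block (limma adjusted p = 0.112) and held under 5 of 9 alternatives. A related structure with an open outer end, found in 11 windows, was at 3325 and 3385 in input and 1644 and 1282 in m6A-IP, a log2 fold change of -1.21 (SE 0.18, limma adjusted p = 0.015). Structures with position 15 paired in a stem of 4 base pairs differed among themselves. That with a second small hairpin, in 17 windows, was at 81.4 and 73.1 in input and 113 and 125 in m6A-IP, a log2 fold change of 0.59 (SE 0.18, limma adjusted p = 0.059). The stem alone, as in Taf1d, was at 3903 and 3900 in input and 9031 and 6737 in m6A-IP, a log2 fold change of 0.999 (SE 0.20, limma adjusted p = 0.025). The structure of a window in Polq, with a stem of 4 base pairs and a smaller loop, was at 35990 and 34850 in input and 25950 and 19890 in m6A-IP, a log2 fold change of -0.64 (SE 0.24, limma adjusted p = 0.094; adjusted p = 0.266 with the reaction as a block). The window of Fyb, whose stem begins right after position 15, was at 412 and 417 in input and 2502 and 2058 in m6A-IP, a log2 fold change of 2.44 (SE 0.16, limma adjusted p = 0.014), the largest of the 69. With either input library left out, the call of the Fyb structure held and those of the other 5 did not (limma adjusted p between 0.13 and 0.67), though no direction changed. Each value sums all RNAs of the library with that fold and is not a measurement of the intron's own sequence.

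**Figure D5:**
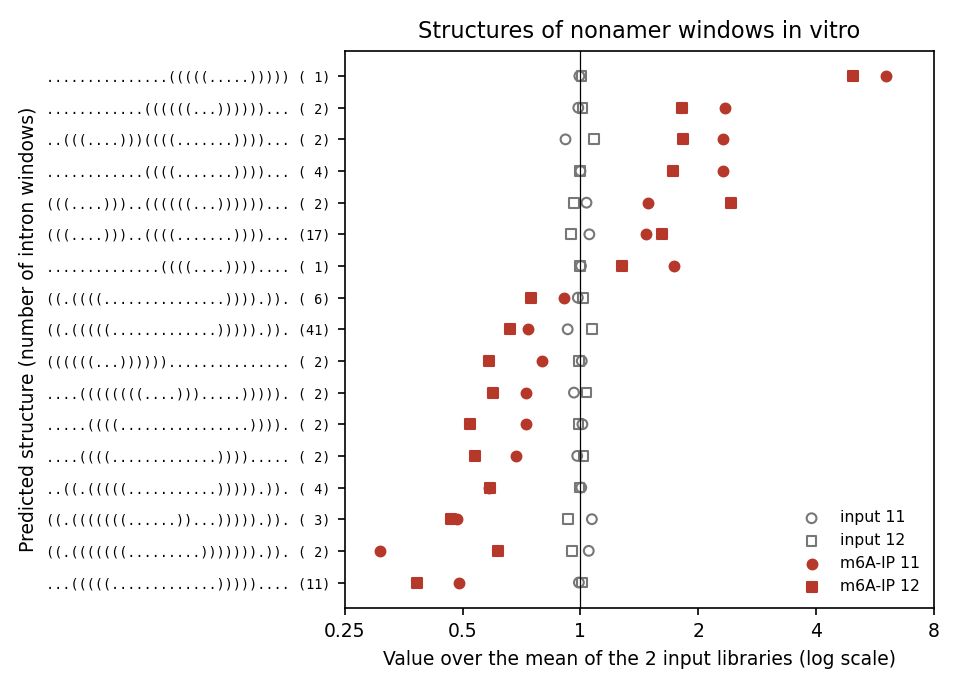
Value of a predicted structure in each of the 4 in vitro libraries over the mean of its 2 input libraries (x, log scale), for structures with a stem that were found in at least 2 windows of the chosen introns or enriched in m6A-IP (y, dot bracket notation, number of windows in parentheses). The structure without a stem, found in 9 windows, is not drawn. Open symbols are input and filled symbols m6A-IP libraries; the filled symbols of the structure of 41 windows lie left of its open ones, and those of the Fyb window, in the top line, lie farthest right.

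Just above the 10% limit lay introns of Fbxl5 at 55.6 reads, Brwd1 at 75.0 and Usp24 at 78.7, and just below it Fbxo21 at 63.5, Fam179b at 64.0 and Supt5 at 59.4. Just above the minimum mean lay introns of Fchsd2, Lrp4 and Nploc4, at 50.02 to 50.15 reads, and just below it those of Ren1, Ubr2 and Ocrl, at 49.95 to 49.99.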

How the data were processed

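Single mouse embryos and an in vitro methylation experiment were analysed from processed tables; no reads were used. For the embryos the authors estimated transcript counts with Salmon 0.7.2, counted reads on RefSeq exons and introns (mm10) with STAR and featureCounts without strand, and normalized with DESeq2 1.18.1. The deposited signal is the mean normalized count over all embryos of a stage; it has no spread and its depth per embryo is unknown. The other embryo columns hold the authors' log2 fold changes and adjusted p-values between genotypes, and those of the in vitro table hold their m6A-IP comparison; none were used. In vitro, the deposited signal is reads per RNAfold structure divided by a size factor of the library (cutadapt 1.9.1, R 3.4.3).

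Levels are means per kb of feature. A level relative to exons averages the upstream and downstream exon, and over transcripts where several share an intron. GENCODE vM21 and RefSeq of GRCm38.p6 supplied other annotation and sequence. The "other introns" of a transcript are those of the length range without an exon overlap. Windows were folded with RNAfold 2.7.2. The in vitro test used limma 3.58.1 (R 4.3.3), checked on simulated data. The median structure had 106, 95, 114 and 6 reads in the input libraries of reactions 11 and 12 and the m6A-IP libraries of reactions 11 and 12. Input and m6A-IP libraries of the same number are taken as parts of the same reaction, since the study's methods set aside part of each reaction as input; their deviations from the group means correlated at 0.015 across structures. The labels do not say that the 2 reactions were independent preparations, so p-values measure the spread between these libraries, which may be technical. Python 3.11.15, pandas 2.3.3, numpy 2.4.6, matplotlib 3.10.9 and samtools 1.23.1 were used otherwise.

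The members, gene lists and rules were chosen with earlier results of these data known. Named were the 12 introns with the highest ratio, the 10 with the highest mean, the 5 largest rises and 5 falls between stages, 3 on each side of each limit, those of the gene lists (at most 5 a list), those with the nonamer, the 5 genes with most introns, and introns of Mat2a, Clk1, Clk4 and Mettl16; the introns beside well covered exons were added after their values were seen. Not every intron so selected is given. Alternatives changed the limits, the exon and strand rules, pseudocount, scaling, filter, replicate block and libraries.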

Additional observations from a re-analysis of the deposited data

How the results depend on the processing

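The number of chosen introns follows the limits: it was 2727 at a minimum mean of 20 and 421 at 100, 1692 at a minimum ratio of 0.05 and 644 at 0.2, and 1851 with introns over listed exons kept. Without introns that hold a GENCODE or later RefSeq exon, an alternative chosen after seeing the data, 465 remained, and 113 of these stood at a ratio of at least 0.1 at E2.5. With a mean of at least 50 required at E2.5, that number was 117 and the median ratio at E2.5 was 0.0679. In vitro, scaling to library totals gave 8299 enriched structures, and 47.6% of the called structures were enriched in place of 31.5%. With 1 library left out, 855 to 11188 structures were enriched and 1994 to 20642 depleted; where this left 1 library in a group, it was assumed to vary like the other group. The density of the nonamer was 10.4 per Mb outside repeats, also an alternative added after seeing the data. Of the other alternatives, 19 moved their result by less than 1.5 times, among them the exon and strand rules.

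The reaction number as a replicate block gave 4282 enriched and 10863 depleted structures. Among the structures described by name or number of windows it ended the calls of the 41-window and Polq structures and no other. No paired analysis was possible for the embryos because the tables hold no value per embryo. A count test on reads recovered from the in vitro values was not run.

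Means without spread limit all statements on embryos to description, and depth limits the shallow m6A-IP library of reaction 12. Every comparison of the stages also carries the different genotype mix of the pooled embryos.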
